A study of Mus musculus with 32 samples.

Results

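Ibsp, Spp1, Dmp1 and Mepe are 4 of the 31053 genes counted in this single-cell RNA-seq series, and they were chosen by gene symbol as the bone matrix members of the SIBLING family (small integrin-binding ligand, N-linked glycoproteins). Their levels were followed through cultured bone marrow-derived stromal cells under osteogenic conditions (BMSC-OBs), in cells gated by marker genes as stromal progenitors, adipogenic cells, osteoblast progenitors, osteoblasts, osteocyte-like cells, macrophages, osteoclast-like cells, T cells and granulocytes. None of the 4 members was in any marker list, so their levels did not decide which class a cell entered. Levels are given as UMIs (unique molecular identifiers, each standing for 1 captured transcript) per 10000 UMIs of the cells of a class.

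SIBLING proteins are secreted, acidic and heavily phosphorylated, and most carry an RGD motif that integrins bind. Ibsp (bone sialoprotein) promotes the nucleation of hydroxyapatite at the mineralization front, whereas Spp1 (osteopontin) restrains crystal growth and is also a secreted ligand of integrins and Cd44 made by macrophages and other immune cells. Dmp1 (dentin matrix protein) and Mepe (matrix extracellular phosphoglycoprotein) are products of late osteoblasts and osteocytes that are known for their part in local mineralization and in phosphate balance. The remaining relative, Dspp, belongs to dentin.

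The cells came from the femurs of 77 Diversity Outbred (DO) mice, an outbred stock in which every animal has its own genotype, and the labels give no treatment, age or sex of the mice. Marrow stromal cells of each mouse were differentiated in vitro in medium with ascorbic acid, β-glycerophosphate and dexamethasone, released with EDTA, collagenase and trypsin, and mixed into 16 pools of 4 or 5 mice, so a pool averages over mice and is the replicate here. All cells had therefore been through the same osteogenic culture, and an osteocyte-like cell here is a cell of that culture and not a cell from a bone lacuna.

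The 16 pools held 53990642 to 100777353 UMIs each, and 83717 cells remained after quality filters, 2512 to 7135 per pool. Of these, 46432 (55.5%) passed a gate: 9105 stromal progenitors, 7555 adipogenic cells, 6826 osteoblast progenitors, 7010 osteoblasts, 5386 osteocyte-like cells, 8232 macrophages, 538 osteoclast-like cells, 395 T cells and 1385 granulocytes. Each class name stands for the cells that passed that gate and not for a verified type. The gates cut a continuum, since 18.1% of osteocyte-like cells and 12.3% of osteoblasts lay within 1.1 times the minimum of their gate, as did 33.5% of osteoclast-like cells and 14.96% of lipid-associated macrophages. Summed osteoblast markers had a median of 892 UMIs per 10000 in osteoblasts, 952 in osteocyte-like cells, 434 in osteoblast progenitors and 102 in stromal progenitors. In pool 13, osteoblasts and osteoblast progenitors were shallow, with a median of 3115 and 3626 UMIs per cell, whereas no other pool had fewer than 13143 UMIs per osteoblast. Of the 82778 distinct barcodes, 932 occurred in more than 1 pool.

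The members sit in 1 cluster on chromosome 5 of GRCm38 (mm10), all on the plus strand, within 238 kb. In GENCODE M21, Dmp1 spans 104202613 to 104214102, Ibsp 104299171 to 104311469, Mepe 104325329 to 104338611 and Spp1 104435118 to 104441050, and the Spp1 gene overlaps Gm42793, a transcript of unverified status on the same strand, so that reads shared by this pair cannot be assigned with certainty. The 250 bases before the RefSeq start (GRCm38.p6) of each member are shown because the members moved together in some cell classes and apart in others. Capitals mark every match to the CCAAT box, to the AT-rich elements TTTAAA and TATAAA and to the hexamer ACCACA, a core of the motif bound by Runx2, each searched on both strands, so that a match on the minus strand appears as its reverse complement. These capitals do not overlap, and Spp1 and Dmp1 each have a further RefSeq start that is not shown.
Ibsp, chr5:104299037-104299286, plus strand: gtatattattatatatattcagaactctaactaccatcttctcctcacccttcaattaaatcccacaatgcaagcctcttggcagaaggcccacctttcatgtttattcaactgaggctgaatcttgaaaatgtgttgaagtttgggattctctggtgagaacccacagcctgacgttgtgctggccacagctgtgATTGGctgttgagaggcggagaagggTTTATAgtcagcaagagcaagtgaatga
Spp1, chr5:104434861-104435110, plus strand: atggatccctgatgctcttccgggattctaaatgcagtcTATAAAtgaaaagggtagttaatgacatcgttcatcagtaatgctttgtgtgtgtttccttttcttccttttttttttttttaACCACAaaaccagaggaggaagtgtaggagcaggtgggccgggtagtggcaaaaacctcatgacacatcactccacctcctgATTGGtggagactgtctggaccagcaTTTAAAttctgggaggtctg
Dmp1, chr5:104202367-104202616, plus strand: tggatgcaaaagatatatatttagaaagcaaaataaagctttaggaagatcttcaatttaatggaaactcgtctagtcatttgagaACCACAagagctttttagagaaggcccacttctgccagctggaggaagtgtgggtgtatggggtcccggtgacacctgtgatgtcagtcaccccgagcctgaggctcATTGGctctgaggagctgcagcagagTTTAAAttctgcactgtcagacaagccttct
Mepe, chr5:104325079-104325328, plus strand: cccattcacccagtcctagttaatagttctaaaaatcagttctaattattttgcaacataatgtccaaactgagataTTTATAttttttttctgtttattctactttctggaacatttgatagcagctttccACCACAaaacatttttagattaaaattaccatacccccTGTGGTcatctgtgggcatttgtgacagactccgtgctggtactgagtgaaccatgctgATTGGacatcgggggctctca

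All 4 windows held an inverted CCAAT box, read as ATTGG on the plus strand, whose first base lay 54 bases before the start of Ibsp, 46 before Spp1, 57 before Dmp1 and 21 before Mepe. Among the 32536 windows of the same length in the RefSeq table, 33.8% held this motif on either strand. The AT-rich element nearest the start was TTTATA at 28 bases in Ibsp, TTTAAA at 20 bases in Spp1 and TTTAAA at 31 bases in Dmp1, whereas in Mepe the only such element lay 173 bases before the start. Of all windows, 12.0% held TTTAAA and 12.3% held TATAAA. The hexamer ACCACA or its reverse complement was present in Spp1 at 128 bases, in Dmp1 at 164 bases and in Mepe at 118 and 80 bases, was not among the letters of the Ibsp window, and occurred in 14.0% of all windows. These matches are descriptions of the letters and were not tested for binding.

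Ibsp rose stepwise through the osteogenic classes. Over the 16 pools, given as the lowest, the median and the highest pool, Ibsp was at 29.8, 86.8 and 121 UMIs per 10000 in stromal progenitors, at 473, 560.0 and 678 in osteoblast progenitors, at 570, 715 and 945 in osteoblasts, and at 825, 1000.2 and 1276 in osteocyte-like cells. The order osteoblast progenitor, osteoblast, osteocyte-like held in 16 of 16 pools, although the ranges of neighbouring classes overlapped. Adipogenic cells were lower than stromal progenitors in all 16 pools with no overlap, at 8.79, 21.02 and 29.6 UMIs per 10000.

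Spp1 had its highest median in osteoblasts, although osteoblasts exceeded osteoblast progenitors in only 12 of 16 pools and their ranges overlapped, and its median was lower in osteocyte-like cells. Its lowest, median and highest pools were 76.9, 101 and 219.7 UMIs per 10000 in stromal progenitors, 95.7, 169 and 396 in osteoblast progenitors, 127, 206 and 342 in osteoblasts, and 41.9, 75.4 and 144 in osteocyte-like cells. Osteocyte-like cells were below osteoblasts in 16 of 16 pools and below stromal progenitors in 13 of 16. The osteocyte-like level moved with the gates, to a median of 40.0 UMIs per 10000 with gates 1.5 times as strict. It also rested on droplets with many UMIs, since the median osteocyte-like droplet held 11 to 149 Spp1 UMIs over the pools where the mean was 72.9 to 398, against a median droplet of 36 to 630 and a mean of 162 to 851 in osteoblasts. Adipogenic cells were at 28.1, 36.8 and 78.9 UMIs per 10000, below stromal progenitors in every pool.

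Dmp1, like Ibsp, was higher in each osteogenic class than in stromal progenitors, adipogenic cells and macrophages, with no overlap over pools. How many of all genes show such a gap was not counted. It was at 0.0532, 0.115 and 0.546 UMIs per 10000 in stromal progenitors, and at 2.24, 4.44 and 16.6 in osteoblast progenitors, with no overlap. Its level was 3.04, 5.01 and 9.37 in osteoblasts and 4.55, 9.74 and 18.2 in osteocyte-like cells, which were above osteoblasts in 16 of 16 pools. Osteoblasts exceeded osteoblast progenitors in 11 of 16 pools, and these neighbours overlapped almost entirely.

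Mepe rose along the same order. It was at 0.0136, 0.0766 and 0.381 UMIs per 10000 in stromal progenitors and at 0.106, 0.686 and 2.42 in osteoblast progenitors, and these ranges overlapped, although osteoblast progenitors were higher in 16 of 16 pools. In osteoblasts it was at 0.603, 3.74 and 7.23, and in osteocyte-like cells at 1.85, 9.14 and 17.9, higher than in osteoblasts in 15 of 16 pools. The osteoblast level exceeded that of osteoblast progenitors in 16 of 16 pools.

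**Figure D1:**
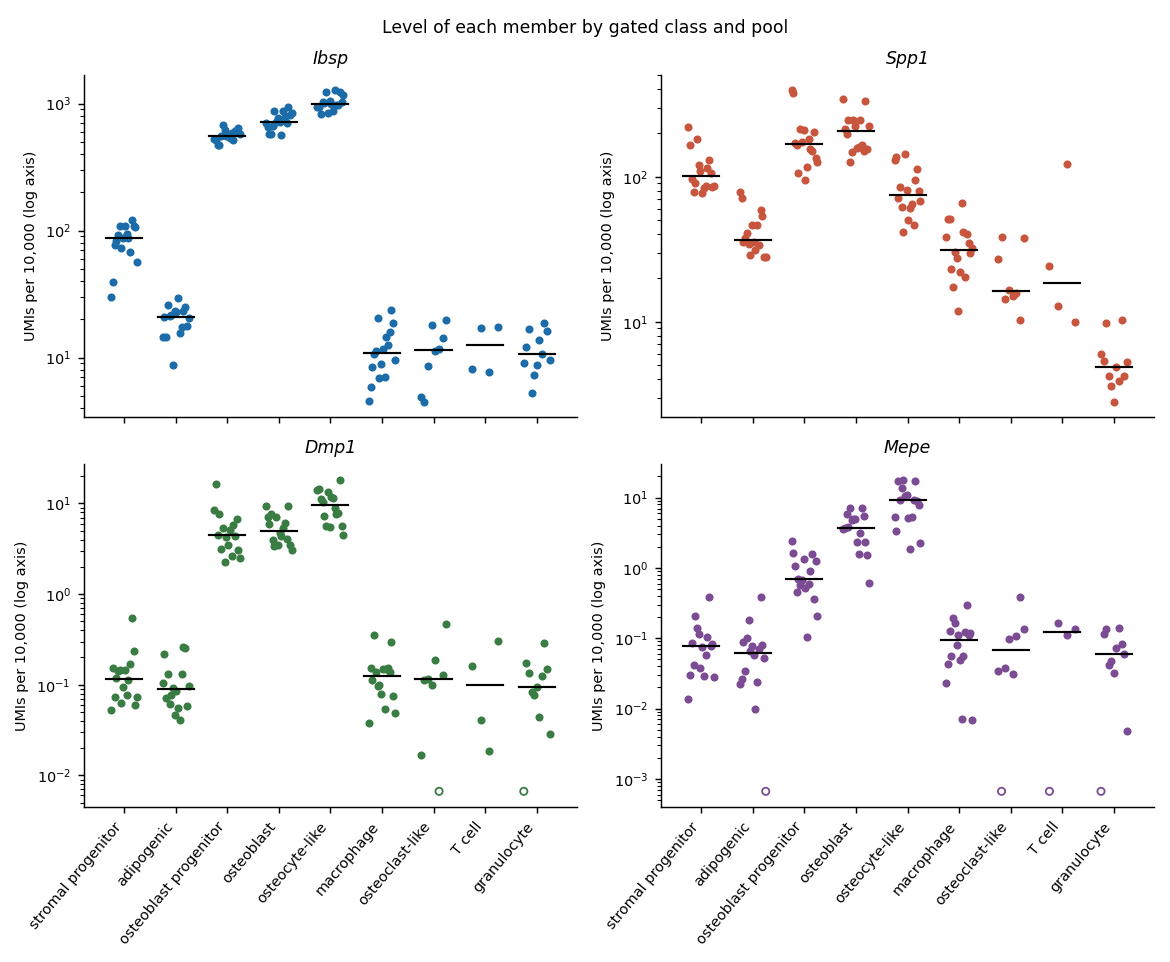
Level of each member (UMIs per 10000, log axis) in each gated class, with 1 filled point per pool, a line at the median over pools and open circles, placed below the scale, for pools with 0 UMIs. Ibsp climbs from osteoblast progenitors to osteocyte-like cells. The Spp1 median is 206 in osteoblasts, which exceed osteoblast progenitors in 12 of 16 pools, and 75.4 in osteocyte-like cells. The Dmp1 and Mepe medians of stromal progenitors and adipogenic cells are near those of macrophages, T cells and granulocytes.

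Because droplets also capture free RNA of the culture, the members were read in hematopoietic cells. Immune cells can also make Spp1, and their own Spp1 was not separated from free RNA here. This limit applies to every Spp1 level and proportion set against T cells or granulocytes. T cells were to serve as the background, and 4 pools held at least 20 of them. Ibsp was at 8.12, 17.1, 7.77 and 17.4 UMIs per 10000 in T cells of pools 5, 6, 8 and 14. Granulocytes, present at 20 or more cells in 11 pools and added as a background after the values were seen, had 5.28, 10.7 and 18.8 UMIs per 10000 as their lowest, median and highest Ibsp levels, and macrophages 4.53, 10.9 and 23.7. The Ibsp levels of these hematopoietic classes overlapped almost completely.

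Spp1 in T cells was at 24.2, 12.9, 122 and 10.0 UMIs per 10000 in pools 5, 6, 8 and 14, so pool 8 stood apart from the others. Singled out after its values were seen, the T-cell gate of pool 8 held 6 of 78 droplets with 161 to 2859 Spp1 UMIs each, beside only 5 to 14 Ibsp UMIs. The mean of 83.1 Spp1 UMIs per droplet in pool 8 was 4.46 without those 6 droplets, and in pool 5 the mean of 18.8 was 7.91 without a single droplet of 270 Spp1 UMIs. Those 6 droplets held a median of 28561 UMIs, against 4193 over all T cells of the pool. Granulocytes were lower and tighter, with Spp1 at 2.81, 4.89 and 10.3 UMIs per 10000.

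Dmp1 and Mepe had few UMIs in these classes: 34 and 30 UMIs in all over 371 T cells, and 63 and 40 UMIs over 1352 granulocytes. Their medians over pools were 0.101 and 0.124 UMIs per 10000 in T cells and 0.0949 and 0.0602 in granulocytes, beside 0.125 and 0.0947 in macrophages, 0.115 and 0.0766 in stromal progenitors and 0.0894 and 0.0620 in adipogenic cells. UMIs per droplet were compared within pools as a further scale, which would suit free RNA that adds the same amount to each droplet, and whether it does was not tested. Among the background classes of pools 5, 6 and 14 the deeper one had more Ibsp per droplet, as in pool 6 with 10.48 UMIs in T cells (median depth 5347.5 UMIs) against 6.73 in granulocytes (2831), but not in pool 8 (5.06 in the deeper granulocytes against 5.29). Each pool gave its mean over droplets, and medians are over pools. In stromal progenitors Dmp1 had a median of 0.204 UMIs per droplet against 0.0530 in granulocytes, and Mepe 0.154 against 0.0345. Both were higher in 11 of 11 pools (exact sign-flip permutation test, two-sided, adjusted p = 0.00167 for each, with p = 0.000977 the smallest this design can give). Stromal progenitors were also deeper, with 11144 to 24950 UMIs per cell as medians of pools against 2831 to 7684.5 in granulocytes, and the part of depth was not tested. The median stromal progenitor held 0 Dmp1 UMIs in every pool, and single droplets weigh on these means, as in pool 8, where 1 droplet held 42 of 66 Dmp1 UMIs. With the droplet highest in the member left out of each class and pool, a choice made after the values were seen, the medians were 0.192 against 0.0442 for Dmp1 and 0.119 against 0.0263 for Mepe, again higher in 11 of 11 pools (exact test, adjusted p = 0.00167 for each). Against T cells the same differences were positive in 4 of 4 pools, but 4 pools cannot give a p below 0.125.

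Macrophages were compared with granulocytes of the same 11 pools in the same way. The median over pools of the mean per droplet was 12.6 Spp1 UMIs in macrophages against 2.51 in granulocytes, with a mean difference of 11.5 ± 5.02 (SD) and an excess in 11 of 11 pools (exact sign-flip test, adjusted p = 0.00167). Droplets with many UMIs weigh on the macrophage means. In pool 9, which held the median value, 1 droplet had 1265 of the 8109 Spp1 UMIs, and the median macrophage droplet held 4 against 1 in granulocytes. Over the 11 pools the median macrophage droplet held 3 to 11 Spp1 UMIs and the median granulocyte 1 to 3. With the highest droplet of each class and pool left out, Spp1 was at 10.8 against 2.42, higher in 11 of 11 pools (exact test, adjusted p = 0.00167).

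The calls of the other members in macrophages changed with the processing. For Ibsp the medians were 6.59 and 5.68 UMIs per droplet, with an excess in 7 of 11 pools that did not pass the test (mean difference 1.46, exact test, adjusted p = 0.116). It passed in the second sequencing run (2.09, adjusted p = 0.00732), with doublets kept (1.65, adjusted p = 0.0365) and without the highest droplets (1.75, adjusted p = 0.0176). Dmp1 did not pass (adjusted p = 0.177) but did without the highest droplets (0.0337, adjusted p = 0.0117) and with stricter gates (0.0260, adjusted p = 0.0391). Mepe passed at a very low level, 0.0553 against 0.0345 UMIs per droplet (higher in 10 of 11 pools, adjusted p = 0.00764), but not in the second run (0.0288, adjusted p = 0.0534). Whether the members differ from each other in this excess was not tested. Against T cells of 4 pools, the mean difference was 1.73 ± 1.82 (SD) Ibsp UMIs per droplet, higher in 3 of 4 pools, and -14.5 ± 42.4 Spp1 UMIs, higher in 2 of 4, with neither past the exact test (p = 0.25 and p = 0.875). The droplets of pool 8 described above are in this T-cell value.

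Since 1 source of free RNA keeps its genes in 1 proportion in every droplet of a pool, the proportion of Spp1 to Ibsp UMIs was compared between classes. Its median over pools was 1.16 in stromal progenitors, 1.98 in adipogenic cells, 0.304 in osteoblast progenitors, 0.282 in osteoblasts and 0.0767 in osteocyte-like cells. In macrophages it was 2.37 (16 pools) and in osteoclast-like cells 1.51 (8 pools). In granulocytes it was 0.495 (11 pools) and in T cells 1.86, where the 4 pools ran from 0.576 to 15.7. Macrophages had a median of 1.61 in the 11 pools with granulocytes and of 1.47 in the 4 with T cells. Within the 11 pools with granulocytes, the log2 proportion of macrophages exceeded that of granulocytes by 2.09 on average, that of stromal progenitors by 1.30 and that of adipogenic cells by 2.03, each higher in 11 of 11 pools. It was below that of granulocytes in 11 of 11 pools in osteoblast progenitors (mean difference -0.79), osteoblasts (-0.86) and osteocyte-like cells (-2.80), and all of these passed the exact sign-flip test (p = 0.000977 and adjusted p = 0.0011 for each). Against T cells no class passed (exact test, adjusted p of 0.375 or higher), but 4 pools cannot give a p below 0.125. Osteoblast progenitors (mean difference -2.85), osteoblasts (-3.15) and osteocyte-like cells (-5.10) were below T cells in 4 of 4 pools. Each other class was higher than T cells in 2 pools.

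**Figure D2:**
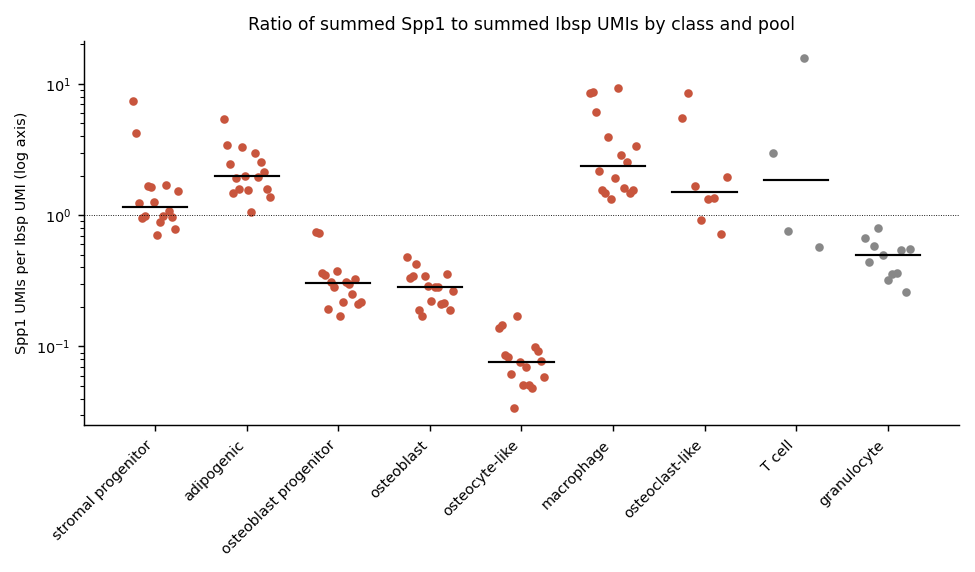
Ratio of Spp1 to Ibsp UMIs (log axis) in each gated class, with 1 point per pool and a line at the median. Osteocyte-like cells are lowest (median 0.0767), osteoblasts and their progenitors lie near 0.3, macrophages, stromal progenitors and adipogenic cells are above the granulocytes (median 0.495), and the T cells scatter from 0.576 to 15.7.

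Osteoblasts were then compared with stromal progenitors over all genes. All 4 members were higher in osteoblasts: Mepe 64.4-fold (log2 fold change 6.01 ± 0.25 SE, adjusted p = 1.47e-15), Dmp1 60.1-fold (5.91 ± 0.25, adjusted p = 2.00e-15), Ibsp 12.7-fold (3.66 ± 0.14, adjusted p = 6.50e-16) and Spp1 2.54-fold (1.34 ± 0.13, adjusted p = 3.80e-09). The classes were so different that 38% of the 13353 genes tested were called higher and 38.6% lower in osteoblasts at an adjusted p of 0.05, so a call by itself sets no gene apart. By absolute log2 fold change Mepe ranked 18 and Dmp1 20 among the genes tested, Ibsp 267 and Spp1 2206. The fits scale libraries by TMM. With library totals in its place the median of all genes was -0.47 rather than -0.01 on the log2 scale, and 2465 genes were called higher and 8736 lower, but all 4 members stayed higher. The stromal progenitor levels of Dmp1 and Mepe, 0.115 and 0.0766 UMIs per 10000, stood beside 0.0949 and 0.0602 in granulocytes, and the part of free RNA in these fold changes was not tested. Osteoblasts had to reach 24 on the osteoblast score, and stromal progenitors to stay below 16 on it and below 2.8 on the osteoblast progenitor score. Members had profiles like those of genes in the osteoblast score, as Ibsp with Col1a1 (r = 0.986) and Mepe with Thbs4 (0.949). The part of the gates in these fold changes was not tested.

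Between osteoblast progenitors and osteoblasts, Mepe was the member that moved most. It was 5.17-fold higher in osteoblasts (log2 fold change 2.37 ± 0.21, adjusted p = 6.06e-09) and ranked 15 of 12920 genes by absolute log2 fold change. Both classes were divided at the minimum of the osteoblast score, whose markers include Thbs4. Thbs4 had the profile most like Mepe over pools and mesenchymal classes (r = 0.949), and the part of the gate in this difference was not tested. Ibsp was 1.41-fold higher (0.50 ± 0.04, adjusted p = 2.27e-09) and Spp1 1.27-fold higher (0.35 ± 0.10, adjusted p = 0.00595), beside 19.3% of all genes called higher and 23.7% lower (with library totals, 1316 genes higher and 5527 lower). Without the pool block the Spp1 difference did not pass (log2 fold change 0.29, adjusted p = 0.249). Dmp1 did not pass, with a log2 fold change of 0.28 ± 0.13 (adjusted p = 0.0970), but did with no filter on low counts (0.28, adjusted p = 9.4e-06).

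Osteocyte-like cells and osteoblasts split the family. Mepe was 2.19-fold higher in osteocyte-like cells (log2 fold change 1.13 ± 0.15, adjusted p = 3.09e-07), Dmp1 1.72-fold (0.79 ± 0.06, adjusted p = 3.21e-11) and Ibsp 1.35-fold (0.44 ± 0.04, adjusted p = 2.66e-10). Spp1 was 2.65-fold lower (-1.41 ± 0.09, adjusted p = 1.13e-12). Here 27.4% of the 12346 genes tested were called higher and 27.8% lower. The osteocyte-like gate was set with Car12, Ptprz1, Bambi, Phex, Sost and Gal, and osteoblasts were required to score low on these genes.

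**Figure D3:**
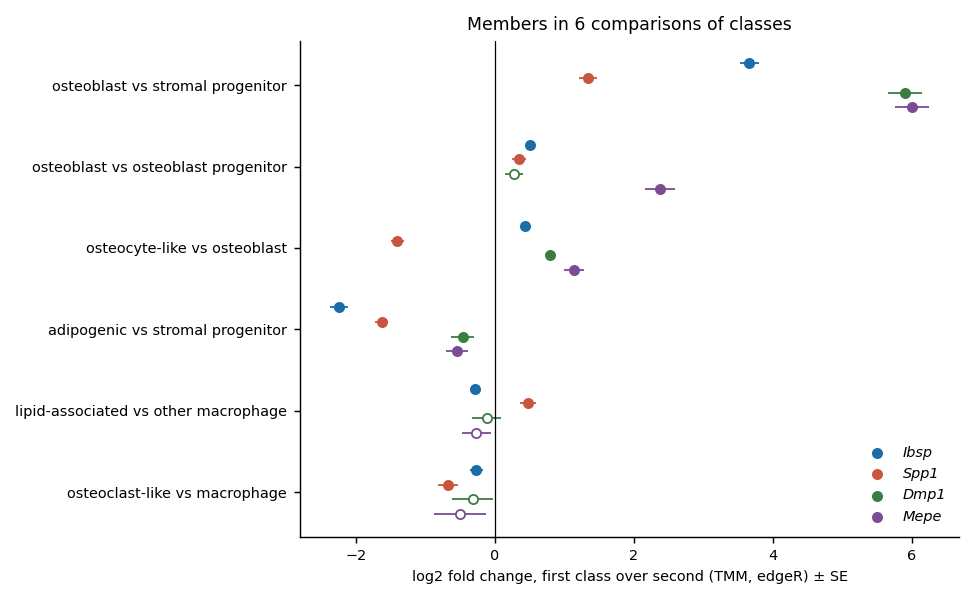
Log2 fold change of each member in 6 comparisons of gated classes, with bars of 1 SE from edgeR (16 pools, 8 for osteoclast-like cells), filled where the adjusted p was at most 0.05 and open otherwise. Mepe and Dmp1 exceed 5.9 between osteoblasts and stromal progenitors, and Spp1 is the member that is negative between osteocyte-like cells and osteoblasts (-1.41).

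The split was also read along the osteocyte-like score, by dividing all cells past the osteoblast minimum by this score alone. The limits of the ranges include the gate limits 2.8 and 4. Ranges below 2.8 are therefore cells of the osteoblast gate and ranges from 4 up are osteocyte-like cells. The lowest and top ranges repeat that comparison in part of the same cells, so they cannot show whether the split depends on the gates. From the lowest of 6 score ranges to the highest, Ibsp rose from a median of 555 to 1070.4 UMIs per 10000, higher in the top range in 12 of the 12 pools that had cells in both. Spp1 had medians of 183, 204, 182, 149.96, 100.2 and 54.7 UMIs per 10000 along the 6 ranges, and was lower in the top range in 12 of 12 pools, by a median of 3.79-fold. Dmp1 went from 3.74 to 10.6 UMIs per 10000 (2.23-fold, 12 of 12 pools). Mepe had medians of 1.52, 2.21, 5.98, 9.04, 12.1 and 9.73 UMIs per 10000, 7.57-fold higher in the top than in the lowest range within the same 12 pools. In 6 of these 12 pools Mepe rose at every step, so the lower top median was not shared by all pools. The lowest and top ranges held 14 pools each and the others 16, so the medians do not cover the same pools. Cells of the lowest range were shallower, with a median over pools of 10741 UMIs per cell against 15553 in the top range, and the part of depth was not tested.

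**Figure D4:**
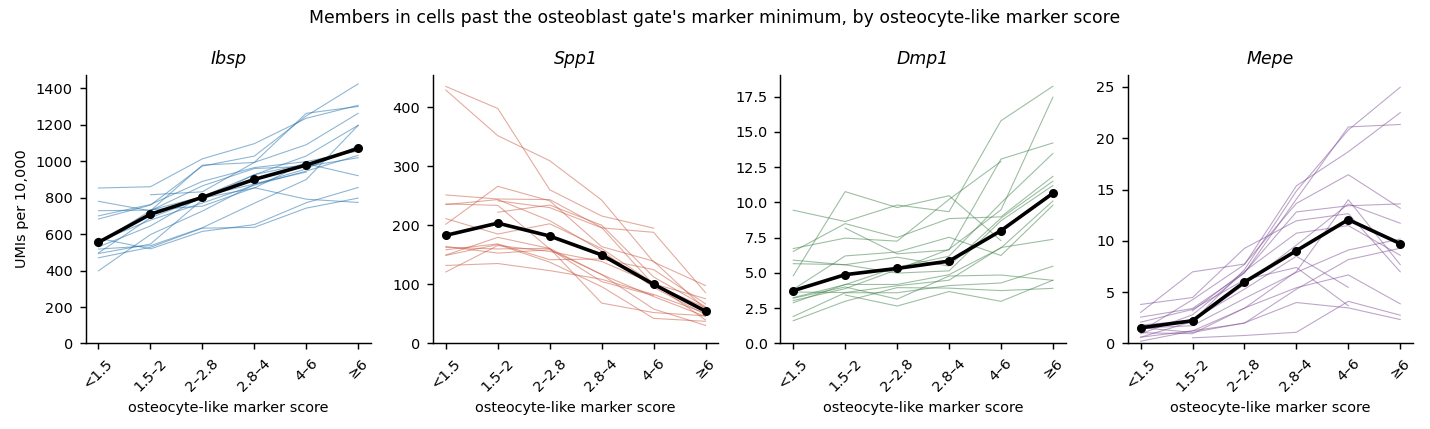
Level of each member (UMIs per 10000, linear axes from 0 that differ between panels) in cells past the osteoblast minimum, by range of osteocyte-like score, with thin lines for pools and a thick line for the median. Spp1 falls from a median of 204 in the second range to 54.7 in the top range while Ibsp and Dmp1 rise, and Mepe rises to 12.1 in the fifth range and is at 9.73 in the top range. The lowest and top ranges hold 14 pools each and the others 16.

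Adipogenic cells had less Ibsp and Spp1 than stromal progenitors. Ibsp was 4.75-fold lower (log2 fold change -2.25 ± 0.14, adjusted p = 1.95e-12) and Spp1 3.10-fold lower (-1.63 ± 0.10, adjusted p = 1.25e-12). Dmp1 (-0.47 ± 0.16, adjusted p = 0.0145) and Mepe (-0.55 ± 0.16, adjusted p = 0.00507) passed as well, beside 37.2% of 13235 genes called higher and 33.9% lower (with library totals, 7334 higher and 2760 lower), but with library totals in place of TMM scaling neither did (adjusted p = 0.167 and 0.105). Each of this pair was higher in adipogenic cells in 6 of 16 pools, with median log2 differences within pools of -0.10 and -0.11. In both classes the medians of Dmp1 and Mepe were near those of T cells, granulocytes and macrophages. The highest stromal progenitor pools, at 0.546 for Dmp1 and 0.381 for Mepe, exceeded every pool of those 3 classes (up to 0.356 and 0.293). Of the adipogenic maxima, Mepe (0.383) did so and Dmp1 (0.261) did not. Per droplet, stromal progenitors exceeded granulocytes in 11 of 11 pools for both genes.

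Macrophages were scored on genes of the lipid-associated state (Gpnmb, Trem2, Cd9, Fabp5 and Lgals3), and the 2 ends of the score were compared. Of 8232 macrophages, 2192 with a score of at least 12 were taken as lipid-associated and 3008 with a score below 6 as other. Macrophages with scores between these limits were in neither class. Spp1 was at 17.7, 33.0 and 72.4 UMIs per 10000 as the lowest, median and highest pools of lipid-associated macrophages and at 8.93, 25.8 and 74.5 in other macrophages, a 1.39-fold difference in paired pools (log2 fold change 0.47 ± 0.12, adjusted p = 0.00208) with 21.2% of 8581 genes called higher. Ibsp per 10000 UMIs was lower (-0.29 ± 0.05, adjusted p = 8.11e-05), beside 23.7% of genes called lower, as were 6 of 7 mineral and matrix genes tested. Lipid-associated macrophages were the deeper class in 16 of 16 pools, and per droplet the Ibsp direction reversed, to 5.56 against 5.33 UMIs (mean log2 difference 0.11, higher in 11 of 16 pools, exact sign-flip test, adjusted p = 0.0281), while Spp1 stayed higher (25.4 against 11.0, mean log2 difference 0.87, adjusted p = 0.0022). This scale was added after the values were seen, and the part of free RNA in the Ibsp difference was not tested. The summed osteoblast markers were 20.1 UMIs per 10000 in lipid-associated and 22.8 in other macrophages, a difference in the direction of Ibsp per 10000 UMIs, and their part in it was not tested. Dmp1 (adjusted p = 0.678) and Mepe (adjusted p = 0.311) did not pass. With gates 1.5 times as strict, which left 7 pools, the Spp1 difference was larger but did not pass (log2 fold change 0.62, adjusted p = 0.0612).

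Osteoclast-like cells were compared with macrophages in the 8 pools that had both. Their gate used Ctsk (62.7 UMIs per 10000) and Acp5 (51.4), so these levels follow from the selection. Other genes of the same gate were low, as Dcstamp (1.36), Calcr (0.816), Oscar (0.536) and Ocstamp (0.498). Spp1 was 1.60-fold lower in osteoclast-like cells (log2 fold change -0.68 ± 0.15, adjusted p = 0.00132), and Ibsp was lower (-0.27 ± 0.09, adjusted p = 0.0376), beside 8.95% of 10115 genes called higher and 12.4% lower (with library totals, 1199 higher and 1007 lower). The Ibsp call was lost in 5 alternatives, among them the second sequencing run (adjusted p = 0.0836), and with stricter gates the median Ibsp level of osteoclast-like cells was 3.75 rather than 11.5 UMIs per 10000. Osteoclast-like cells were deeper than macrophages in 7 of 8 pools, and per droplet Ibsp was higher in them in 7 of 8, with medians of 9.84 against 6.87 UMIs (mean log2 difference 0.31, exact sign-flip test, adjusted p = 0.0281). Per droplet the Spp1 difference did not pass (-0.12, higher in 4 of 8 pools, exact test, adjusted p = 0.688). The direction of Ibsp therefore depends on the scale, and the part of free RNA was not tested. Dmp1 and Mepe rested on 36 and 23 UMIs in 447 cells and did not pass (adjusted p = 0.492 and 0.388).

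The share of cells with at least 1 UMI was compared after every cell was thinned to 2000 UMIs, leaving out 478 of 7010 osteoblasts, 488 of 6826 osteoblast progenitors, 119 of 5386 osteocyte-like cells, 45 of 371 T cells and 247 of 1352 granulocytes that were shallower. The median share with Dmp1 was 35.4% in osteoblast progenitors, 44.1% in osteoblasts and 62.0% in osteocyte-like cells, against 2.99% in T cells and 1.69% in granulocytes. The median share with Mepe was 9.00%, 29.7% and 35.3% in the same order, against 0.505% in T cells and 0% in granulocytes. Stromal progenitors had medians of 2.27% with Dmp1 and 1.64% with Mepe, within the range of T cells over pools (0 to 8.33% and 0 to 2.24%). Their own pools ran from 0.73 to 17.2% for Dmp1 and from 0.625 to 18.3% for Mepe, so the highest exceeded every T-cell pool. Without thinning the shares were higher, 66.7%, 77.1% and 87.7% for Dmp1 and 28.5%, 50.5% and 54.9% for Mepe. For Ibsp the thinned share was 100% in osteoblasts and their progenitors in every pool, but also 88.7% in T cells (83.3 to 97.98% over pools), so the measure is near its ceiling. Spp1 was found in 98.1% of osteoblasts and 81.1% of osteocyte-like cells, but also in 83.8% of T cells, 86.6% of macrophages and 54.2% of granulocytes. Osteoblasts, at 96.1 to 100% over pools, did not overlap with osteocyte-like cells (72.3 to 93.1%), T cells (59.4 to 94.9%) or granulocytes (40 to 87.0%), whereas the last 3 of these ranges overlapped. The osteoblast range did overlap with macrophages (67.6 to 96.8%), adipogenic cells (75.4 to 97.3%), stromal progenitors (92.8 to 98.9%) and osteoblast progenitors (91.9 to 100%).

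Dmp1 and Mepe were then read in the same cells, thinned to 4000 UMIs. In osteoblast progenitors a median of 39.3% of cells had Dmp1 without Mepe, 4.90% had Mepe without Dmp1, 6.04% had both and 47.3% had neither. In osteoblasts these medians were 37.5%, 12.1%, 21.5% and 28.2%, and in osteocyte-like cells 41.1%, 10.6%, 30.6% and 13.5%. At 4000 UMIs the T cells of a pool reached 15.1% with Dmp1 and 9.72% with Mepe, and granulocytes 9.62% and 4.82%. Detection differs between genes, so these shares are read between classes and not between Dmp1 and Mepe. At this depth a missing UMI does not show that a transcript is absent.

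The members differed in how far the pools spread. Across the 16 pools the coefficient of variation in osteoblasts was 15.5% for Ibsp, 30.8% for Spp1, 37.8% for Dmp1 and 50.2% for Mepe, and in osteocyte-like cells 13.3%, 39.0%, 39.3% and 57.7%. The highest pool exceeded the lowest 1.66-fold for Ibsp, 2.69-fold for Spp1, 3.08-fold for Dmp1 and 12.0-fold for Mepe in osteoblasts. Mepe was lowest in osteoblasts of pool 18 (0.603 UMIs per 10000) and highest in those of pools 12 and 5 (7.23 and 7.15). Pool 1 had the highest Spp1 in stromal progenitors, osteoblast progenitors and osteoblasts (219.7, 396 and 342 UMIs per 10000), while its stromal progenitors had the lowest Ibsp, Dmp1 and Mepe. In pool 13, whose osteoblasts were shallow, stromal progenitors had the highest Ibsp (121), Dmp1 (0.546) and Mepe (0.381) of all pools, and the part of free RNA in these values was not tested.

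Across pools, Spp1 and Dmp1 in osteoblasts varied together, with Pearson's r = 0.70 (permutation p = 0.00293, adjusted p = 0.0293) and Spearman's rho = 0.67 (p = 0.00608, adjusted p = 0.0608) over 16 pools. Leaving out pools 1 and 14, most distant from the median Spp1 level, gave r = 0.48, so its size rests in part on those pools. With doublets kept r was 0.66, close to 0.70, but did not pass (permutation test, adjusted p = 0.0598), so the call depends on that filter. The other 5 pairs of members had r between -0.23 and 0.26, and none passed (adjusted p = 0.587 for each). When the pair of pools most distant in the first-named member was omitted, the coefficient went from -0.18 to -0.56 for Ibsp and Dmp1, from -0.23 to -0.38 for Ibsp and Mepe, from 0.19 to -0.11 for Ibsp and Spp1 and from 0.26 to 0.40 for Dmp1 and Mepe, but only from -0.17 to -0.16 for Spp1 and Mepe. The median number of UMIs per osteoblast was related to no member past the test, with r from -0.13 for Mepe to 0.41 for Spp1 (adjusted p of 0.565 or higher), over 10 relations tested in all. Without pools 13 and 7, the most distant in depth, r moved from 0.22 to 0.50 for Ibsp and from 0.25 to 0.10 for Dmp1. For Mepe it moved from -0.13 to 0.04, and for Spp1 it stayed at 0.41.

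**Figure D5:**
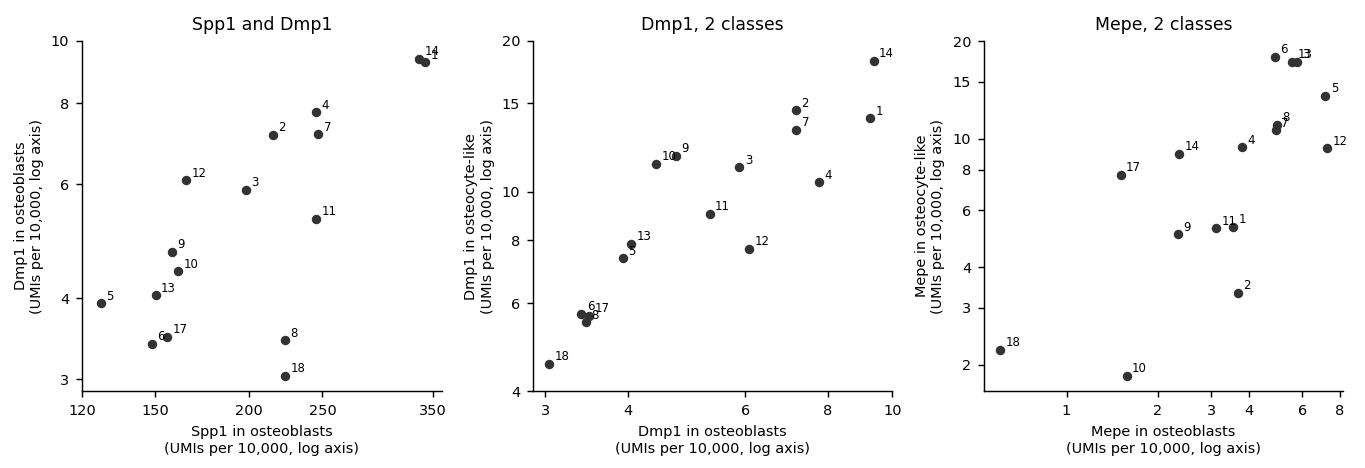
Each point is 1 numbered pool, on log axes in UMIs per 10000: Dmp1 against Spp1 in osteoblasts, and Dmp1 and Mepe in osteocyte-like cells against osteoblasts. Pools 1 and 14 are highest in both Spp1 and Dmp1 in osteoblasts, and pools 18 and 10 are lowest in Mepe of osteocyte-like cells (2.23 and 1.85).

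Over the 80 sums of a pool and a mesenchymal class, the profile of Ibsp was most like that of Dmp1 among the members (Pearson's r = 0.93 of log2 levels), and Dmp1 was close to Mepe (r = 0.87), whereas Spp1 was farther from Ibsp (0.58), Dmp1 (0.53) and Mepe (0.34). These sums share pools and cell classes and are not independent. Among 3123 genes with at least 1 UMI per 10000 in some class, those most like Ibsp were Col1a2 (r = 0.989), Col1a1 (0.986), Mef2c (0.982), Sparc (0.981) and Wisp1 (0.979), of which Col1a1 and Sparc were used in the osteoblast gate. Type I collagen, encoded by Col1a1 and Col1a2, is the main protein of bone matrix. For Dmp1 they were Pcsk6 (0.968), Kcnk1 (0.963), Cadm1 (0.959), Bmp3 (0.950) and Col11a2 (0.948), and for Mepe Thbs4 (0.949), Lipc (0.944), Col22a1 (0.935), Ptprz1 (0.925) and Bcl2l11 (0.921), where Cadm1, Thbs4 and Ptprz1 were gate genes. No gene matched Spp1 as closely, with Tmem97 (0.812), Insc (0.803), Timp1 (0.803), Srm (0.783) and Cd63 (0.782) at the top.

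Genes that act on or beside these proteins were read as lists. Of 9 receptor genes, all 9 were tested between osteoblasts and stromal progenitors, and 3 were higher and 6 lower, beside 38% and 38.6% of all genes, with a median log2 fold change of -0.74 against -0.01 over all genes (with library totals 1 was higher and 8 lower, and Itgav and Itgb1 turned from higher to lower). Those lower included the integrin subunits Itga9 (-3.12) and Itga5 (-1.54), and Cd44 (-0.43), while Itga4 was higher (3.19) at a level of 0.0464 UMIs per 10000. In osteocyte-like cells against osteoblasts 2 of 8 tested receptors were higher and 4 lower, beside 27.4% and 27.8% of all genes, and the higher pair was Cd44, a receptor of osteopontin (log2 fold change 1.99, adjusted p = 8.35e-20), and the integrin subunit Itgb3 (1.39, adjusted p = 4.90e-08). Cd44 was at 2.03 UMIs per 10000 in osteocyte-like cells, 0.503 in osteoblasts and 4.05 in macrophages.

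Of 9 genes for enzymes that act on these proteins or, for Thbd (thrombomodulin), a cofactor of thrombin, 8 were tested between osteoblasts and stromal progenitors, and 7 were higher and none lower, beside 38% and 38.6% of all genes, with a median log2 fold change of 0.59 (4 higher and none lower with library totals, where Furin turned negative). They included Bmp1 (2.01), a protease that cleaves Dmp1, and Fam20c (1.52), the secretory kinase that phosphorylates the family. Mmp9, which is also an osteoclast marker of the gates, did not pass (adjusted p = 0.573), and Mmp3 was too low to test. In osteoblasts against osteoblast progenitors 5 of 8 were higher and none lower, beside 19.3% and 23.7% of all genes. In osteocyte-like cells against osteoblasts none was higher and 3 were lower, beside 27.4% and 27.8%, namely Bmp1 (-0.35), Pcsk5 (-0.45) and Mmp2 (-0.64).

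Of 10 mineral and matrix genes tested between osteoblasts and stromal progenitors, 7 were higher, Bglap and Sparc of the osteoblast gate among them, and 3 lower, beside 38% and 38.6% of all genes (median log2 fold change 0.95, and 6 higher with library totals, where Enpp1 turned negative). Bglap (osteocalcin) was at 6.04 and Sparc at 2.66, and the phosphatase gene Phospho1 (3.50) and Galnt3 (2.33), whose enzyme glycosylates Fgf23, were also higher, whereas Mgp (-3.75), an inhibitor of calcification, was lower. In osteocyte-like cells against osteoblasts 2 of 10 were higher, 3 lower and 5 did not pass, close to the 27.4% and 27.8% of all genes. Fgf23 and Dspp were too low to test in any class. Of 7 osteoblast transcription factors, 6 were higher in osteoblasts than in stromal progenitors and none lower, against the same 38% and 38.6% (median log2 fold change 0.86), while with library totals 4 were higher and 2 lower, with Runx2 and Sp7 turning negative. They included Dlx3 (3.00) and Mef2c (2.24). In osteocyte-like cells against osteoblasts 3 were higher, among them Mef2c (0.50), and 3 lower, among them Runx2 (-0.20). These counts stood beside 27.4% and 27.8% of all genes, and with library totals 3 were higher and 1 lower.

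In adipogenic cells against stromal progenitors, none of 9 tested mineral and matrix genes was higher and 8 were lower, where 37.2% and 33.9% of all genes were called (median log2 fold change -1.31 against 0.03 over all genes), and 5 of 8 receptors were lower and 2 higher, namely Itga8 (2.79) and Itga9 (1.00). Of 7 transcription factors 5 were lower and 1 higher, or 3 and 2 with library totals, where Runx2 and Atf4 turned positive, as did Slc20a2 among the mineral genes. Of the enzymes and Thbd, 4 of 8 were higher and 3 lower, near the shares of all genes. In lipid-associated against other macrophages 1 of 7 receptors was higher and 4 were lower, beside 21.2% and 23.7% of all genes. In osteoclast-like cells against macrophages 2 of 8 were higher and 5 lower, beside 8.95% and 12.4%.

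The annotation holds 16 protein-coding genes within 500 kb of the cluster, of which 12 are not members. Of these, 9 were tested between osteoblasts and stromal progenitors, with 3 higher, 3 lower and 3 not past the test, shares close to the 38% and 38.6% of all genes, and a median log2 fold change of 0.04 (2 higher and 6 lower with library totals, where BC005561 turned negative). Between osteoblasts and osteoblast progenitors 5 of 8 were higher and 1 lower, beside 19.3% and 23.7% of all genes (3 and 1 with library totals). In adipogenic cells against stromal progenitors 6 of 8 were higher and none lower, beside 37.2% and 33.9% of all genes, with a median log2 fold change of 0.66 (8 higher with library totals). Nudt9 was higher in osteoblasts than in stromal progenitors (0.65, adjusted p = 9.88e-12) and Hsd17b11 lower (-1.42, adjusted p = 4.67e-12). Dspp, the nearest gene to Dmp1 and a member of the same family, had a median of 0 UMIs per 10000 over pools in all of the mesenchymal classes. Sparcl1, a matrix gene beside Dspp, was higher in osteocyte-like cells than in osteoblasts (log2 fold change 1.68, adjusted p = 1.32e-06), at a median of 0.0264 UMIs per 10000. No neighbour reached 1 UMI per 10000 in its median over pools in any of the 5 mesenchymal classes or in macrophages.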

How the data were processed

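Cells from 16 pools, sequenced in 2 runs of the same droplets, were captured with 10x 3′ chemistry. The deposited values are raw UMI counts per gene and cell made by the authors with Cell Ranger 5.0.0 on mm10, per the labels; the annotation release is not given in the sources used here. Run HGYVNCCX2 was analysed, and run HHFFMCCX2 was an alternative. Cells were kept that had from 400 to 6200 genes, no more than 10% of UMIs from mitochondrial genes, 20% from Rpl and 15% from Rps genes, and 5192 doublets removed by similarity to simulated doublets. The authors' cell labels were not used here.

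A gate score was the geometric mean over markers of 1 plus UMIs per 10000. Marker lists came from the study and common knowledge, and gate limits were set after seeing the data; members and lists were chosen with earlier results of these data known. Counts were summed per pool and class (at least 20 cells) and tested with edgeR 4.0.16 (R 4.3.3; filterByExpr, TMM, quasi-likelihood, Benjamini-Hochberg over all genes, adjusted p of at most 0.05), with pool as a block since both classes come from the same droplets. Same-pool deviations correlated by at least 0.0818, against medians of -0.0436 to -0.0123 for other pools. On simulated data (osteocyte-like against osteoblast, 12100 genes), 100% of 200 genes changed by 1 on the log2 scale were recovered, with 3.4% of calls false. The changed genes were drawn from those with higher counts, in either direction, with the same scatter set for every gene. In the data 27.4% of genes were called higher and 27.8% lower, so these rates need not carry over. Proportions and UMIs per droplet were tested by exact sign flips over pools, and correlations by 100000 permutations. DESeq2 1.42.0, no block, no filter, stricter gates, doublets kept, the other run, leaving out pools and subtraction of free RNA were tried.

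Named genes were the members, the 5 genes most like each by Pearson correlation of log2(UMIs per 10000 + 0.1), and fixed lists of receptors, enzymes, mineral genes, transcription factors and neighbours. UMIs were counted at 3′ ends, so levels are compared between classes, not between genes.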

Additional observations from a re-analysis of the deposited data

Results flagged for a closer look

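Dixon's gap test was applied to the 8 groups of 4 to 10 pools, 4 members in T cells and in osteoclast-like cells, and 3 stood out, where chance alone is set to mark about 1 in 20 groups. Spp1 in T cells of pool 8 was at 122 UMIs per 10000, far from the other 3 pools at 10.0 to 24.2, and 6 of its 78 droplets held most of the Spp1 UMIs. Dmp1 in osteoclast-like cells of pool 14 was at 0.473 UMIs per 10000, beside 0 to 0.186 in the other 7 of 8 pools. Mepe in osteoclast-like cells of pool 13 was at 0.388 UMIs per 10000, beside 0 to 0.135 in the others. The Dmp1 and Mepe values rest on 36 and 23 UMIs over all 8 pools.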

How the results depend on the processing

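Of 1145 alternative values, 1028 kept their direction and side of the threshold or moved by no more than the spread over pools. The 1145 include 71 proportions and 284 values per droplet against T cells. At 4 pools such a test cannot give a p below 0.125, so it can change in direction but not in call. Every member kept its call in osteoblasts against stromal progenitors and in osteocyte-like cells against osteoblasts, DESeq2 included. The causes of the changes below were not tested.

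Both classes of a comparison come from the same pools, and without the replicate block osteoblasts against osteoblast progenitors gave 1379 genes higher and 1340 lower with Spp1 at 0.29 (adjusted p = 0.249), and osteocyte-like cells against osteoblasts gave 2231 and 2150 genes. Without the block the calls of Dmp1 (-0.50) and Mepe (-0.47) in adipogenic cells, of Ibsp (-0.26) and Spp1 (0.37) in lipid-associated macrophages and of Ibsp (-0.24) and Spp1 (-0.57) in osteoclast-like cells were lost. The block changed no other member's call. With library totals the genes called were 2465 higher and 8736 lower in osteoblasts against stromal progenitors, 1316 and 5527 against osteoblast progenitors, and 2760 lower in adipogenic cells, where Dmp1 (-0.24) and Mepe (-0.31) lost their calls, as did Ibsp in osteoclast-like cells (-0.17). That Ibsp call was also lost with the second run (-0.24), with doublets kept (-0.18) and without replicate 13 (-0.26). Dmp1 in osteoclast-like cells passed with the second run (-1.86), and Dmp1 in osteoblasts against osteoblast progenitors passed with no filter on low counts (0.28, adjusted p = 9.4e-06). Per droplet in place of per 10000 UMIs, an alternative chosen after seeing the data, Ibsp turned to 0.11 in lipid-associated macrophages and 0.31 in osteoclast-like cells, and Spp1 in osteoclast-like cells no longer passed (-0.12). Stricter gates gave 952 genes higher and 935 lower in lipid-associated macrophages with Spp1 no longer past the threshold (0.62), and Dmp1 at -0.37 in adipogenic cells (adjusted p = 0.0578).

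The 4 pools with T cells fixed no direction in several classes. With stricter gates the log2 proportion of Spp1 to Ibsp against T cells turned to 0.12 in stromal progenitors, 0.67 in adipogenic cells and 0.28 in macrophages. When 1 pool was left out it ran from -1.49 to 0.10 in stromal progenitors, -0.85 to 0.77 in adipogenic cells, -1.18 to 0.46 in macrophages, -0.93 to 0.65 in lipid-associated and -1.68 to 0.10 in other macrophages, highest without pool 8 in each, and from -0.27 (without pool 14) to 1.02 in osteoclast-like cells. UMIs per droplet against T cells ran from -23.7 to 6.11 for Spp1 in macrophages, -20.8 to 9.84 in lipid-associated and -28.6 to 1.91 in other macrophages, the highest again without pool 8. For Dmp1 they ran from -0.00866 to 0.0181 in macrophages, -0.0048 to 0.0391 in lipid-associated and -0.00155 to 0.0146 in other macrophages, and for Mepe from -0.00703 to 0.0405, -0.000923 to 0.0612, -0.0184 to 0.0253 and, in osteoclast-like cells, -0.00419 to 0.0259. Stricter gates turned Spp1 to 5.54, 4.44 and 0.605 in the 3 macrophage classes and Dmp1 to -0.0015 in macrophages, and keeping doublets turned Ibsp in other macrophages to -0.203. After subtraction of T-cell RNA the levels of Mepe in macrophages (-0.00301), Mepe in other macrophages (-0.0234) and Spp1 in other macrophages (-6.60) fell below 0. Other levels outside the osteogenic classes moved too: Ibsp in macrophages went from 15.9 to 3.00 and, after subtraction of granulocyte RNA, from 11.6 to 0.977, Spp1 in macrophages from 23.9 to 3.40 but, with granulocyte RNA, only from 27.5 to 22.7, and Ibsp in adipogenic cells from 22.5 to 16.2 and from 21.2 to 14.5.

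With the droplet highest in the member left out of each class and pool, chosen after seeing the data, the log2 proportion against T cells turned to 0.29 in adipogenic cells and 0.11 in lipid-associated macrophages, and Mepe in osteoclast-like cells turned to -0.0228 UMIs per droplet against T cells and -0.00563 against granulocytes. Against granulocytes Ibsp (1.75) and Dmp1 (0.0337) then passed in macrophages and Dmp1 (0.0319) in lipid-associated macrophages.

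Against granulocytes, stricter gates left lipid-associated macrophages with a log2 proportion of 3.09 that no longer passed (exact test, adjusted p = 0.125). Ibsp was at 1.92, Spp1 at 29.1 and Mepe at 0.0633 UMIs per droplet, none past the test. All of these were larger than with the main gates (2.41, 1.81, 15.9 and 0.0235). An exact test over fewer pools has a larger smallest p, so the lost calls do not show smaller differences. With the same gates Mepe in other macrophages was lost (0.0145) and Dmp1 in macrophages passed (0.0260). In the second run Ibsp passed in macrophages (2.09) and other macrophages (1.49), Mepe did not in macrophages (0.0288), lipid-associated (0.0348) or other macrophages (0.0199), and Dmp1 in osteoclast-like cells turned to -0.0157. With doublets kept Ibsp passed in macrophages (1.65) and not in lipid-associated macrophages (1.36), and the correlation of Spp1 and Dmp1 over pools was 0.66 (adjusted p = 0.0598). With stricter gates that of median UMIs and Mepe turned to 0.13. Low UMI counts of Dmp1 and Mepe outside the osteogenic classes limit what these comparisons can show.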

Other observations

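A pool that was high in a member in osteoblasts also tended to be high in the neighbouring classes, which share mice, culture and free RNA with them. These 8 relations over 16 pools were computed after the levels had been seen. Between osteoblasts and osteocyte-like cells Pearson's r was 0.88 for Dmp1 (permutation p = 1e-05, the smallest that 100000 permutations can give, adjusted p = 8e-05, Spearman's rho = 0.85, adjusted p = 0.00088), 0.79 for Ibsp (adjusted p = 0.00116, rho = 0.78, adjusted p = 0.00248), 0.75 for Mepe (adjusted p = 0.00163, rho = 0.76, adjusted p = 0.00268) and 0.65 for Spp1 (adjusted p = 0.0112, rho = 0.62, adjusted p = 0.0203). Leaving out, for each member, the 2 pools most distant from its median in osteoblasts gave r of 0.83, 0.72, 0.77 and 0.52 in that order. Between osteoblast progenitors and osteoblasts r ran from 0.54 for Dmp1 (adjusted p = 0.0299) to 0.75 for Ibsp (adjusted p = 0.0017), and the rank correlation of Mepe did not pass (rho = 0.45, adjusted p = 0.0819). How much of this is shared by genotype, culture or droplets was not tested.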
